A study of Homo sapiens with 4 samples.

Results

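Genes that move amino acids into the cell or make serine, glycine and asparagine were followed through a knockdown of UPF1. The 10 members were chosen by gene symbol as transporters and synthesis enzymes that respond to the transcription factor ATF4. They were SLC1A4, SLC1A5, SLC3A2, SLC7A5, SLC7A11, ASNS, PHGDH, PSAT1, PSPH and SHMT2. All 10 members were present among the 15942 genes of the deposited count table, and all 10 passed the low-count filter that left 15557 genes for testing. RNA came from H9, an established line of human embryonic stem cells grown on Matrigel in E8-supplemented DMEM/F12, and was sequenced in 4 libraries. In 2 of them the cells had received a small interfering RNA (siRNA) labelled siUpf1, and in the other 2 an siRNA against luciferase (siLuc), a sequence with no human target. The siLuc columns share a single name and are called siLuc a and siLuc b. The treatment text common to all libraries also names a UPF3A siRNA and a time course of actinomycin D, an inhibitor of transcription, without giving any library a time, so exposure to the drug is not known here. Separate cultures are not mentioned in any label, and p-values therefore cover only how these 4 libraries vary, possibly for technical reasons.

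UPF1 is the helicase on which nonsense-mediated mRNA decay (NMD) depends. Several mRNAs of the integrated stress response, including that of its transcription factor ATF4, are known substrates of NMD in human cells. When amino acids run short or the endoplasmic reticulum is stressed, ATF4 is translated and activates genes for amino acid uptake and synthesis, often through a composite C/EBP-ATF response element near their start sites. The transporters among the 10 are neutral amino acid exchangers (SLC1A4, SLC1A5) and a heavy chain with its light-chain transporters (SLC3A2, SLC7A5, SLC7A11). The enzymes are the asparagine synthetase ASNS, the serine pathway in order (PHGDH, PSAT1, PSPH), and mitochondrial SHMT2, which turns serine into glycine.

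Elements of this kind can be read directly in the promoters of some members. RefSeq windows (build GRCh38.p14, 250 bases before to 50 after a start site) were at hand for 7 of the 10 members, SLC7A11, PSPH and SHMT2 being the others. The pattern TGATGNAAN, searched on both strands, occurred in 1 window each of 4 of these 7 genes, against 3.61% of all 35116 windows and 2.69% of the 11160 tested genes that have a window. The members were chosen as ATF4-responsive genes, so these shares cannot test for an excess of the element. All 4 matches are shown. SLC1A4 was the strongest riser, while ASNS, SLC3A2 and SLC1A5 did not pass the test. These genes that did not pass lie at 0.692 to 0.781 reads per transcript base, where fold changes were small for nearly all genes. A lack of change therefore cannot be read from them, and whether the element goes with a rise was not tested. The stretches are written along the strand of the gene, with the match in capitals.
SLC1A4, chr2:64989355-64989435, plus strand: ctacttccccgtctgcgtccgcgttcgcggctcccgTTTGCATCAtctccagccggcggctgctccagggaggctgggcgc
ASNS, chr7:97872432-97872512, minus strand: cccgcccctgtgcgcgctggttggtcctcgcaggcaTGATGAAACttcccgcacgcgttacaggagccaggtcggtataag
SLC3A2, chr11:62881699-62881748, plus strand: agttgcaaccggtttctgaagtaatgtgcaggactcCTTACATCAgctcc
SLC1A5, chr19:46784867-46784947, minus strand: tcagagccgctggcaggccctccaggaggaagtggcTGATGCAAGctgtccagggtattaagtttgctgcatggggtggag

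In SLC1A4 the element lies on the opposite strand, where it reads TGATGCAAA, and spans positions -8 to 1 around the start site. The ASNS element begins 68 bases ahead of the start (position -68) and is the site through which amino acid limitation is known to activate this gene. The SLC3A2 match, on the opposite strand, begins at position 37, past the start, and the SLC1A5 match begins at position -97 of 1 of the 3 start sites listed for that gene. No match was present in the single windows of SLC7A5, PHGDH and PSAT1, which says only that these letters are absent there. A match is a description of sequence, and binding was not measured.

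The siRNA target was checked first. UPF1 had 608 and 878 counts in the siUPF1 libraries, against 1936 and 2053 in siLuc a and b, and 32.8% of its control level remained (log2 fold change -1.60, SE 0.07). Totals per library ran from 8887239 to 11200973 counts, the siUPF1 libraries together being 12.9% deeper. Among all genes tested, 16.8% were higher and 9.14% lower in siUPF1 at an adjusted p under 0.05, and the median log2 fold change was -0.01. Markers of pluripotent cells were abundant in all libraries. Their summed level was 1793 to 1921 CPM (counts scaled by TMM to a common library total) in siUPF1 and 2040 to 2176 CPM in siLuc, with 5 of the 9 genes lower. Sums of endoderm markers were 11.4 to 15.3 CPM in siUPF1 and 10.8 to 12.1 CPM in siLuc, and those of mesoderm markers 5.60 to 8.28 CPM in siUPF1 and 6.90 to 8.58 CPM in siLuc. Neural ectoderm markers summed to 473 to 508 CPM in siUPF1 and 525 to 545 CPM in siLuc, trophoblast markers to 22.2 to 23.6 CPM in siUPF1 and 16.4 to 17.2 CPM in siLuc, and fibroblast markers to 327 to 339 CPM in siUPF1 and 314 to 324 CPM in siLuc. Only 2 of 5 listed markers each of endoderm, mesoderm and fibroblasts were present among the deposited genes, and 4 of 5 of trophoblast. In endoderm and in mesoderm 1 was higher and 1 lower, and in fibroblasts 0 were called. Of the trophoblast markers 2 were higher and 0 lower, and of the 5 neural markers 0 were higher and 2 lower. The part of these shifts in the members' values was not tested. In bulk RNA fewer cells of a type cannot be told apart from less RNA per cell.

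Among the 10 genes, UPF1 knockdown raised the neutral amino acid transporter SLC1A4 most, 3.67-fold. Another 7 lie at 0.692 to 0.781 reads per transcript base, where fold changes were small for nearly all genes of like density. A value near the control level therefore does not show that these 7 did not change. With the density trend removed 7 of the 10 were called higher. In that fit 13.9% of all genes and 7.56% of those with at least 0.5 reads per base were called higher. The second share applies to the dense members only, of which SHMT2, SLC7A5, ASNS and SLC3A2 were called. At an adjusted p of 0.05, 2 of the 10 members rose, SLC1A4 and SLC7A11, 0 fell and 8 did not pass (3 higher and 0 lower at an unadjusted p under 0.05; edgeR quasi-likelihood test, Benjamini-Hochberg adjustment over all genes). Beside this, 16.8% of all genes were called higher in the same fit; DESeq2 called 2 members and 1280 of 15942 genes higher, and without siLuc a 2 members and 1443 of 15557 genes were higher. The median log2 fold change over the members was 0.04. For SLC1A4, SLC7A11 and PSPH both siUPF1 libraries lay above both siLuc libraries, a pattern that 32.3% of all genes tested showed, and for the other 7 members the groups overlapped.

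**Figure D1:**
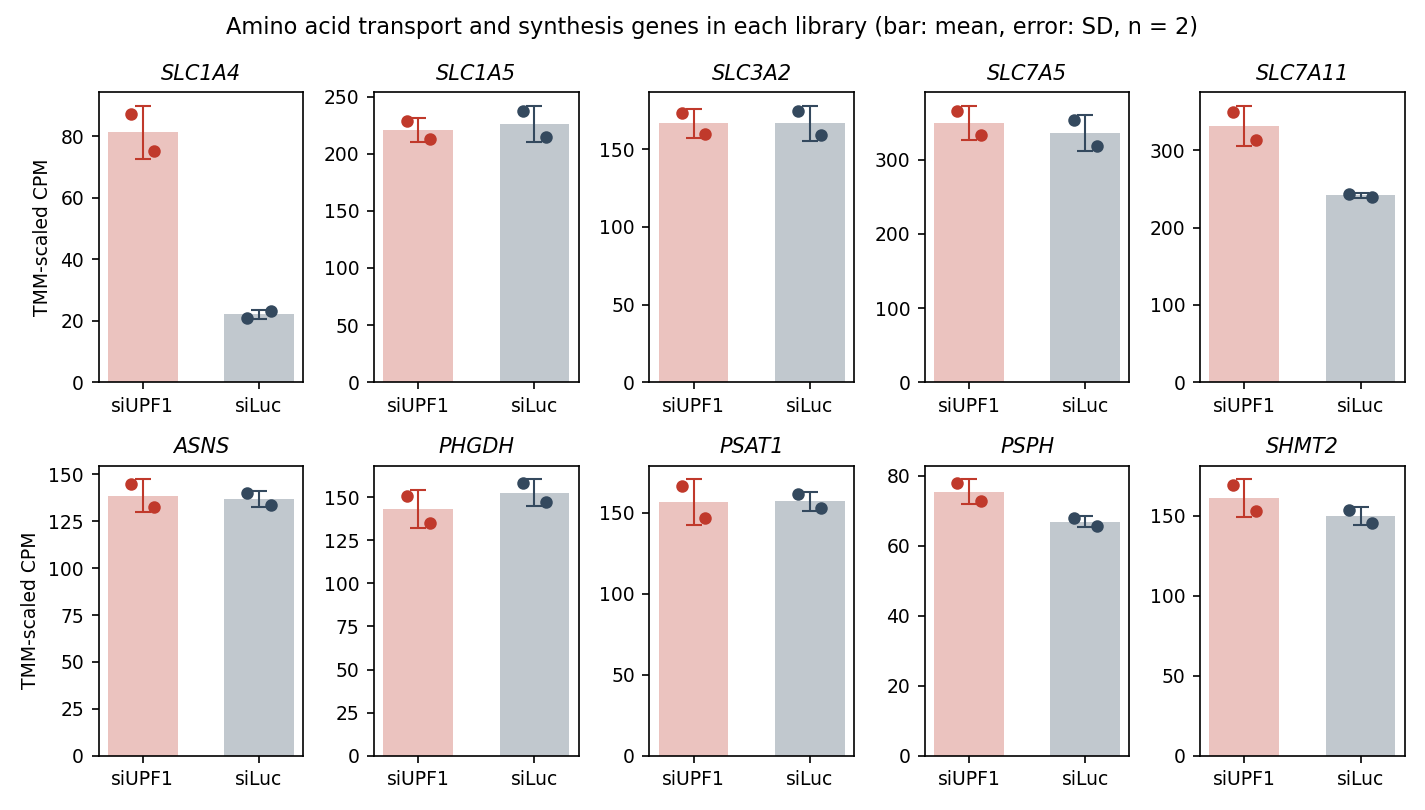
TMM-scaled CPM of each gene (linear axis from 0, its own scale per panel) in siUPF1 libraries (red, left; replicate 1 then 2) and siLuc libraries (grey, right; a then b). Bars are means and error bars the SD of 2 libraries. SLC1A4 stands at 75.3 to 87.4 CPM in siUPF1 and near 22 CPM in siLuc, SLC7A11 and PSPH are separated by less, and the points of the other genes overlap.

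SLC1A4 encodes ASCT1, an exchanger of alanine, serine, cysteine and threonine. Its counts were 874 and 845 in siUPF1 replicates 1 and 2, against 186 and 232 in siLuc a and b. Scaled, these were 87.4 and 75.3 CPM in siUPF1 and 21.0 and 23.1 CPM in siLuc, with means of 81.4 ± 8.60 CPM in siUPF1 and 22.1 ± 1.49 CPM in siLuc (SD, n = 2 per group). Both siUPF1 libraries were more than 3 times as high as either control. The log2 fold change was 1.87 (SE 0.09), a 3.67-fold rise with a 95% interval of 3.23 to 4.16, and its adjusted p in the edgeR quasi-likelihood test was 2.68e-85. The size of this p depended on the setting: it was 2.07e-37 in DESeq2 and 5.13e-05 in the edgeR test with the read density trend removed. By log2 fold change SLC1A4 ranked 74 among the 15557 genes tested. Leaving out each library in turn kept the log2 fold change between 1.76 and 1.98.

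SLC1A5 encodes ASCT2, the related exchanger that is a main route of glutamine uptake. Its levels were 229 and 213 CPM in siUPF1, against 237 and 215 CPM in siLuc, so that the groups overlapped. The log2 fold change was -0.03 (SE 0.07), with an interval of 0.887 to 1.08 for the fold and an adjusted p of 0.767 by edgeR's quasi-likelihood test. The 95% intervals of SLC1A5 and SLC1A4 did not overlap. The highest log2 fold change among genes with at least 0.5 reads per base, SLC1A5 included, was 0.76. A difference in response between the paralogues therefore cannot be read from the intervals. The paralogues also differed in density: in siUPF1 the authors' RPKM values (reads per unit of transcript length and of depth) were 19.99 and 17.32 for SLC1A4 and 80.8 and 73.5 for SLC1A5.

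SLC3A2 encodes 4F2hc (CD98), the heavy chain that brings several light-chain transporters to the cell surface. It stood at 173 and 160 CPM in siUPF1, against 175 and 159 CPM in siLuc, a log2 fold change of -0.00068 (SE 0.07; adjusted p = 0.995, edgeR quasi-likelihood test). SLC7A5 encodes LAT1, the light chain that exchanges glutamine for leucine and other large neutral amino acids. It had 366 and 334 CPM in siUPF1 and 353 and 319 CPM in siLuc, and its fold of 1.04 had a 95% interval of 0.945 to 1.15. For both genes replicates of a group differed by more than the group means did.

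SLC7A11 encodes xCT, the light chain that imports cystine in exchange for glutamate and so feeds glutathione synthesis. It had 3501 and 3523 counts in siUPF1, against 2158 and 2400 in siLuc. The scaled levels were 350 and 314 CPM in siUPF1 and 244 and 239 CPM in siLuc, without overlap. The log2 fold change was 0.46 (SE 0.07), a 1.37-fold rise with a 95% interval of 1.24 to 1.51 and, in the edgeR quasi-likelihood test, an adjusted p of 5.40e-09. The call held without each library in turn, at 0.38 to 0.53. The antisense gene SLC7A11-AS1, named after its value was seen, overlaps its exons and had 70 and 98 counts in siUPF1 against 33 and 32 in siLuc. The sources used here do not say whether counting used strand, so reads of the pair cannot be told apart; the same holds for SHMT2 and NDUFA4L2. Per transcript length the heavy chain was about as dense as LAT1 and denser than xCT in siUPF1. Authors' RPKM values were 74.1 and 69.1 for SLC3A2, 80.3 and 73.9 for SLC7A5 and 37.2 and 33.7 for SLC7A11. RPKM values of dense genes lie close together, so equal abundance cannot be read from them.

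ASNS makes asparagine from aspartate with glutamine as the nitrogen donor and is a standard readout of ATF4 activity. It had 145 and 132 CPM in siUPF1, against 140 and 134 CPM in siLuc. The highest and the lowest value were both in siUPF1. Its log2 fold change was 0.02 (SE 0.07; adjusted p = 0.877, edgeR quasi-likelihood test), and the 95% interval of the fold was 0.920 to 1.11.

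The serine pathway branches from glycolysis at 3-phosphoglycerate. PHGDH, its first and committed enzyme, had 151 and 135 CPM in siUPF1, against 158 and 147 CPM in siLuc, and its fold of 0.937 had an interval of 0.852 to 1.03. PSAT1, the transaminase of the next step, had 166 and 146 CPM in siUPF1 and 161 and 153 CPM in siLuc, with a fold of 0.996 (95% interval 0.905 to 1.10). In neither gene were the groups apart. PSPH, the phosphatase that releases serine, had 77.9 and 72.9 CPM in siUPF1, against 68.0 and 65.7 CPM in siLuc. Its groups did not overlap, at a log2 fold change of 0.17 (SE 0.08), but it missed the threshold with an adjusted p of 0.0909, and passed it at 0.0313 without siUPF1 replicate 2 (edgeR quasi-likelihood test). SHMT2 had 169 and 153 CPM in siUPF1 and 154 and 146 CPM in siLuc, a log2 fold change of 0.11 (SE 0.07; adjusted p = 0.278, edgeR quasi-likelihood test).

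Per length, 7 members formed a tight group near the top of the table. Authors' RPKM values in siUPF1 replicate 1 ran from 72.9 for ASNS to 80.8 for SLC1A5, with SLC7A5, SHMT2, PHGDH, SLC3A2 and PSAT1 between them, and the same genes had 65.4 to 73.9 in replicate 2. Neighbours in this order differed by less than the replicates did. SLC7A11 and PSPH followed at 33.7 to 37.2, and SLC1A4 was last. The highest RPKM of any gene was 112 in siUPF1 replicate 1 and 105 in replicate 2. Genes with few counts left out, the highest reads per base ran from 1.04 in siLuc a to 1.17 in siUPF1 replicate 2. Dense genes thus lie close together below this limit, and equal abundance cannot be read from like values. Divided by transcript length, the counts of the 7 members came to a mean of 0.692 (ASNS) to 0.781 (SLC1A5) reads per transcript base over the 4 libraries. SLC1A4 had 0.123, SLC7A11 0.310 and PSPH 0.338 reads per base.

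Fold changes were small throughout this dense range. Among 1072 genes with at least 0.5 reads per base, the median log2 fold change was -0.12, the 5% to 95% range was -0.23 to 0.10 and the highest value was 0.76; 2.15% were called higher and 15.8% lower. Under 0.25 reads per base the same range was -0.57 to 0.89 over 10126 genes. Against their dense neighbours the 7 members stood in the upper part of the ranking by log2 fold change, with SHMT2 at rank 49 of 1072, SLC7A5 at 77, ASNS at 118, SLC3A2 at 134, PSAT1 at 143, SLC1A5 at 191 and PHGDH at 422. A like shift was present within the groups. In dense genes (at least 0.5 reads per base) the deeper library had the lower CPM, with a median log2 difference of -0.12 for siUPF1 replicate 2 over 1 (11.4% deeper) and -0.09 for siLuc b over a (11.8% deeper). Under 0.25 reads per base the same differences were 0.06 and 0.05. All 10 members were lower in siUPF1 replicate 2 than in 1, with differences of -0.10 to -0.22, and 9 of 10 were lower in siLuc b than in a. SLC1A4, the sparsest, had the largest difference in siUPF1 (-0.22), against the direction of sparse genes, and UPF1 itself was higher in replicate 2 by 0.36; the part of the unequal knockdown was not tested.

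**Figure D2:**
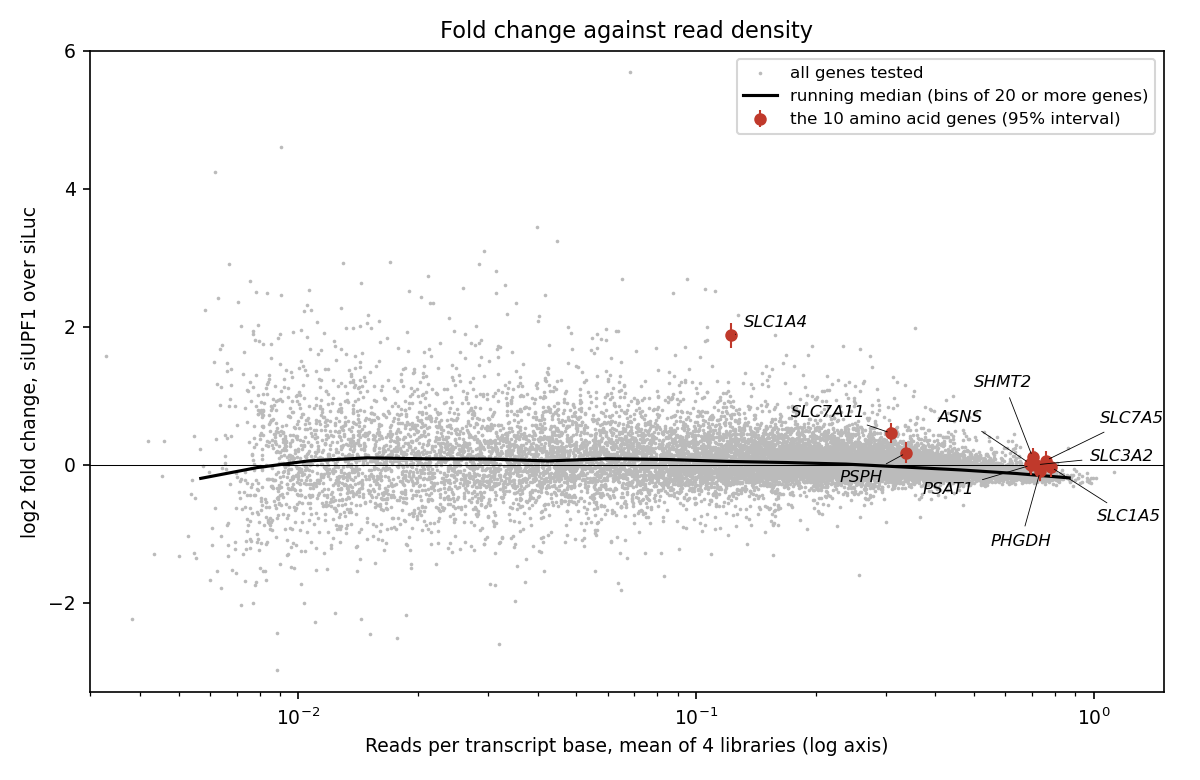
Log2 fold change (siUPF1 over siLuc) of every gene tested against its mean reads per transcript base (log axis), with the running median in black and the 10 genes in red with 95% intervals. The cloud narrows to the right, where 7 of the genes lie between 0.692 and 0.781 reads per base just above the running median; SLC1A4 lies far above the cloud's centre at 0.123 reads per base.

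When the trend on read density was removed from each library (loess on reads per base), 7 of the 10 members were called higher and 0 lower. Beside this, 13.9% of all genes and 7.56% of those with at least 0.5 reads per base were called higher in that fit. Of the 7 called members, SLC1A4, SLC7A11 and PSPH lie under 0.5 reads per base, so the second share does not apply to them. SLC1A4 and SLC7A11 kept log2 fold changes of 1.79 and 0.45. Values relative to genes of like density were 0.23 (SE 0.04) for SHMT2, 0.20 (SE 0.04) for SLC7A5, 0.18 (SE 0.05) for PSPH, 0.14 (SE 0.04) for ASNS and 0.13 (SE 0.04) for SLC3A2, with adjusted p of 0.00372, 0.00517, 0.0361, 0.0317 and 0.0400 (edgeR quasi-likelihood test). PSAT1 (0.12, adjusted p = 0.0593), SLC1A5 (0.12, adjusted p = 0.0620) and PHGDH (0.04, adjusted p = 0.461) did not pass. SHMT2, SLC7A5, PSPH, ASNS and SLC3A2, with folds of 1.10 to 1.18 in this fit, passed here and not with the trend left in. For PSPH the log2 fold change was nearly the same without and with the trend (0.18 and 0.17), and the SE was smaller without it (0.05 and 0.08). SLC1A4 and SLC7A11 passed in both. Why counts level off at high density was not tested.

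**Figure D3:**
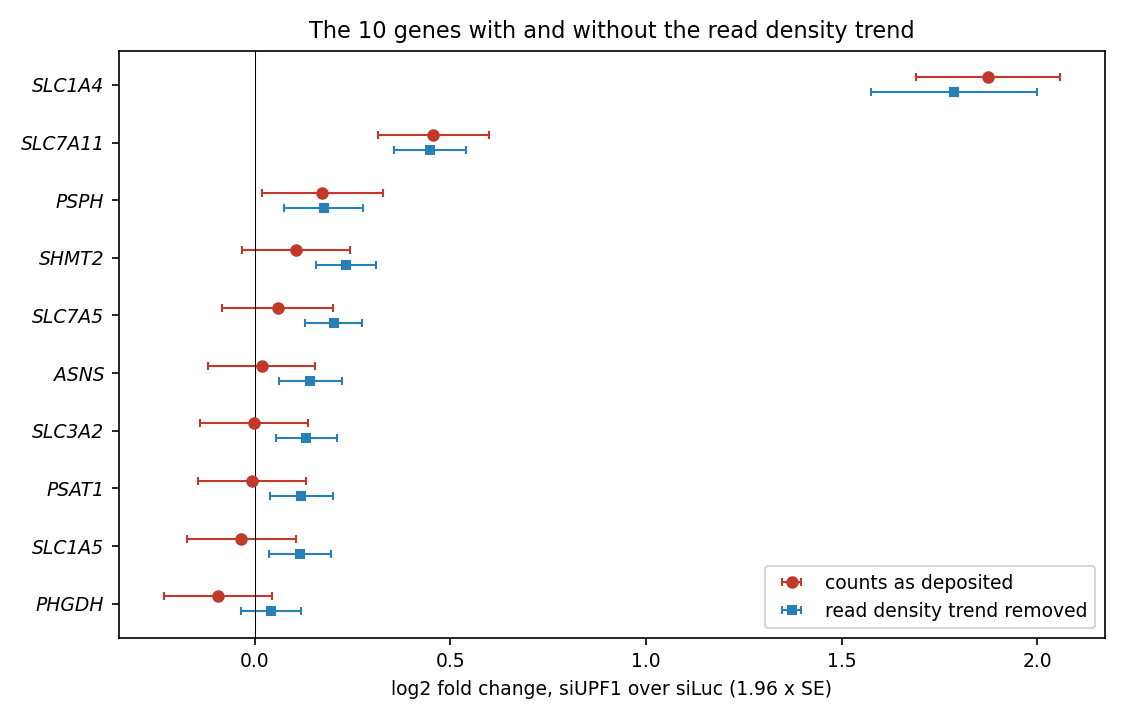
Log2 fold change (siUPF1 over siLuc) of the 10 genes from the counts as deposited (red circles) and with the read density trend removed (blue squares). Bars are the same multiple of SE in both fits, which gives 95% intervals for the circles and narrower ones for the squares. The 7 dense genes lie further right in the second fit (SHMT2 at 0.23 and 0.11 without and with the trend), SLC7A11 and PSPH barely move, and SLC1A4 is apart in both, at 1.79 without the trend and 1.87 with it.

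Annotated transcript features related to NMD were found in members that rose and in members that did not pass. In GENCODE release 29, transcripts classed as NMD substrates were listed for 6 of the 10 members and 41.0% of 13470 matched coding genes, among them 11 of 34 transcripts of PHGDH, 9 of 35 of SHMT2 and 1 of 2 of SLC7A11. For SLC1A4 it was 0 of 5. The representative SLC1A4 mRNA had 0 upstream ATGs, as had those of SLC1A5, SLC7A5 and PSAT1, while that of SLC7A11 had 2 and 53.1% of the coding genes had at least 1. An exon junction more than 50 bases past the stop codon was found in 0 of the 10 and in 0.319% of the coding genes, too few for a comparison. The 3' UTR was 2719 nt long in SLC1A4, 7859 nt in SLC7A11 and 2947 nt in SLC7A5, above the upper quartile of 2375 nt. SLC7A5 did not pass with the density trend left in and was called higher with it removed. The part of 3' UTR length in these values was not tested. The deposited counts are per gene, so isoforms were not measured.

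Genes around the 10 were taken from lists of the same pathways. Of 18 genes of the ATF4 axis, 13 were higher, 0 lower and 5 did not pass (edgeR quasi-likelihood test), beside 16.8% of all genes higher. The median log2 fold change of the 18 was 0.48. The transcription factor gene ATF3 had 91.2 and 78.7 CPM in siUPF1, against 37.1 and 37.0 CPM in siLuc, a log2 fold change of 1.19 (SE 0.09). The pseudokinase gene TRIB3 rose by 1.06 (SE 0.08), DDIT3, which encodes CHOP, by 1.28 (SE 0.12) and PPP1R15A, the phosphatase subunit that reverses eIF2alpha phosphorylation, by 0.86 (SE 0.08). ATF4, named after its value was seen, had 117 and 109 CPM in siUPF1, against 125 and 119 CPM in siLuc, and did not pass (log2 fold change -0.11, SE 0.07); at 0.805 reads per base it lies among the dense genes, whose median was -0.12, and no direction can be read from it. The others that did not pass were the eIF2alpha kinase genes EIF2AK1, EIF2AK2 and EIF2AK4 and PPP1R15B, at -0.08 to -0.01.

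Of 24 other amino acid transporter genes tested, 9 were higher, 1 lower and 14 did not pass (37.5% and 4.17%, beside 16.8% higher and 9.14% lower among all genes), with a median of 0.06. SLC6A9, the glycine transporter GLYT1, had 99.4 and 110 CPM in siUPF1, against 60.9 and 61.9 CPM in siLuc, a log2 fold change of 0.77 (SE 0.08; adjusted p = 1.61e-21, edgeR quasi-likelihood test). SLC36A4, a proton-assisted transporter family member, rose by 0.52 (SE 0.08), SLC7A6, another light chain of SLC3A2, by 0.43 (SE 0.07) and SLC1A1, a glutamate and cysteine transporter of the family of SLC1A4, by 0.59 (SE 0.10). The gene that fell, named after its value was seen, was SLC1A3, a glutamate transporter, at 57.0 ± 4.79 CPM in siUPF1 and 69.8 ± 2.50 CPM in siLuc (log2 fold change -0.29, SE 0.08), a call lost without siLuc b and in DESeq2. SLC38A2, an ATF4-responsive glutamine transporter named after its value was seen, had 295 and 271 CPM in siUPF1 and 296 and 282 CPM in siLuc, at 0.587 reads per base, and did not pass.

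Among 21 other genes of serine, glycine and folate metabolism, 3 were higher, 2 lower and 16 did not pass (14.3% and 9.52%, near the 16.8% and 9.14% of all genes), with a median of -0.03. Without siUPF1 replicate 1, 4 were lower, and without siLuc a 0 were. ALDH1L2, the mitochondrial formyl-tetrahydrofolate dehydrogenase, had 107 and 111 CPM in siUPF1, against 65.5 and 77.0 CPM in siLuc, a log2 fold change of 0.61 (SE 0.07). SFXN3, a sideroflexin, rose by 1.12 (SE 0.23) at means of 7.96 ± 0.919 CPM in siUPF1 and 3.61 ± 1.10 CPM in siLuc. The other riser, GCAT, which cleaves a threonine product to glycine, stood at 0.28 (SE 0.10) and was named after its value was seen. GLDC, the glycine decarboxylase, fell by 0.24 on the log2 scale (SE 0.07), but did not pass without siLuc a (adjusted p = 0.188, edgeR quasi-likelihood test). MTHFD2, named after its value was seen and the partner of SHMT2 in mitochondria, stood at 0.08 (SE 0.07) with 0.615 reads per base and did not pass. Of 24 genes for synthesis and turnover of other amino acids, 7 were higher, 2 lower and 15 did not pass (29.2% and 8.33%, beside 16.8% and 9.14% of all genes), with a median of 0.04. Without siLuc a 4 were higher, without siLuc b 3, and DESeq2 called 3 higher and 0 lower. The genes that fell, OAT and MAT2A, stood at -0.24 (SE 0.07) and -0.18 (SE 0.07) and were named after their values were seen; without siLuc a, siLuc b or siUPF1 replicate 2 the count lower was 0, and without siUPF1 replicate 1 it was 4. The alanine transaminase GPT2 had 244 and 228 CPM in siUPF1, against 174 and 166 CPM in siLuc (log2 fold change 0.47, SE 0.07), and reached 0.530 reads per base. The proline dehydrogenase PRODH rose by 0.54 (SE 0.08), the cystathionine lyase CTH by 0.40 (SE 0.09) and the branched-chain transaminase BCAT2 by 0.29 (SE 0.08), the last not without siLuc b or in DESeq2.

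**Figure D4:**
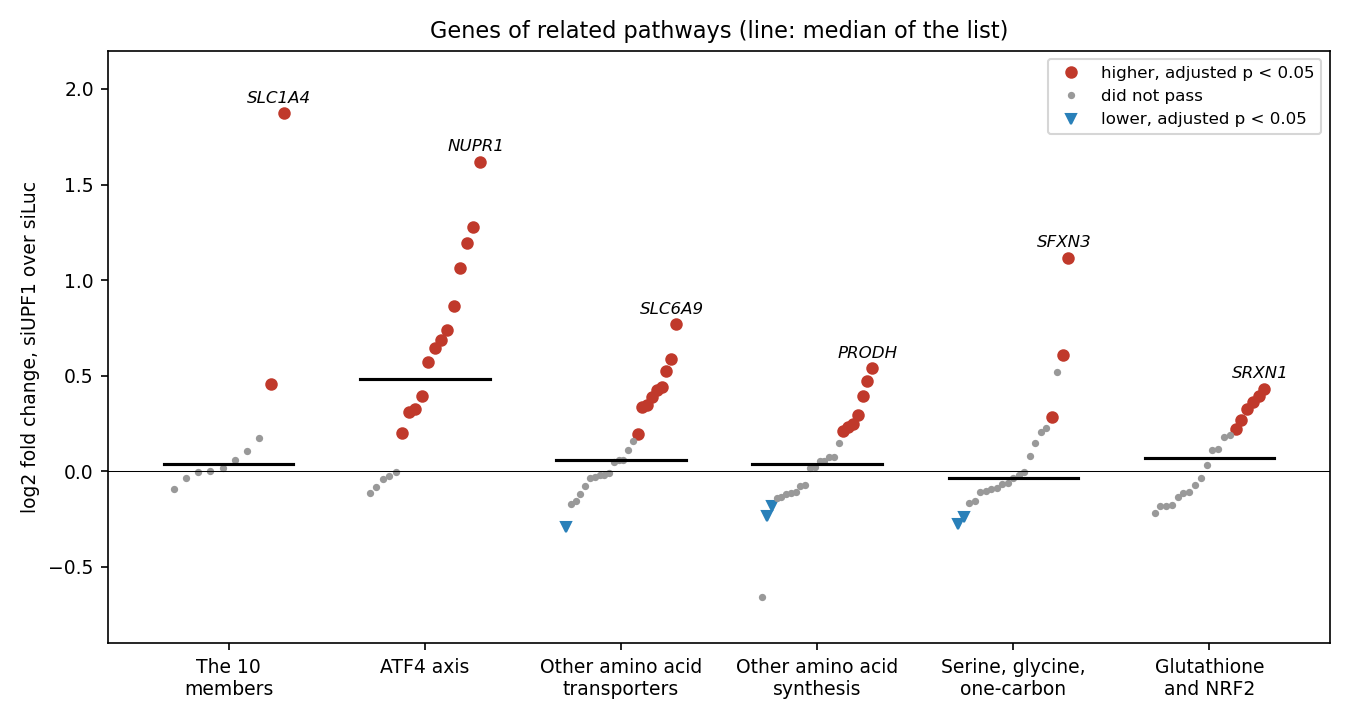
Log2 fold change (siUPF1 over siLuc) of each gene in the 10-gene group and in 5 related lists; red circles passed upward, blue triangles downward, grey points did not pass, and lines are medians. The ATF4 axis has the highest median at 0.48, while the medians of the other lists lie between -0.03 and 0.07, and SLC1A4 is the highest point.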

How the data were processed

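Per the labels' protocols, Trizol RNA of H9 cells went into 4 libraries by a standard Illumina method. The submitters' processing notes name STAR, DESeq2 and build hg19, without versions. Read counts per gene were deposited by the authors without normalization, beside RPKM values; the siUPF1 RPKM values, deposited by the authors, served to derive transcript length (counts over RPKM and library total). The 2 siLuc RPKM columns were not used. Strand, multimapping and duplicate handling are not given in the sources used here.

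Counts were tested with edgeR 4.0.16 in R 4.3.3 (glmQLFit and glmQLFTest, two-sided, TMM, filterByExpr, Benjamini-Hochberg over 15557 genes, threshold 0.05). SE was the log2 fold change over the square root of F. The script was tested on simulated data. Replicates were not copies of each other (chi-square per degree of freedom 2.88 within siUPF1 and 1.71 within siLuc). Members and lists were chosen with earlier results of these data known. The members, UPF1 and the 4 genes of smallest p in each list are named by rule; others are marked. One gene named by this rule is left out here. Alternatives were limma-voom (limma 3.58.1), DESeq2 1.42.0, RLE factors, unscaled library totals, other filters and thresholds, each library left out, genes under 0.25 reads per base, and removal of the density trend (loess, span 0.3). A group left with 1 library is assumed to vary like the other. Transcript features came from GENCODE 29, promoter sequences from RefSeq, GRCh38.p14.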

Additional observations from a re-analysis of the deposited data

How the results depend on the processing

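The calls of SLC1A4 held in all 14 settings and those of SLC7A11 in all but the 2-fold threshold. The count of members called higher was 1 with a fold of at least 2. Among genes under 0.25 reads per base, where SLC1A4 alone was tested, it was 1. With the density trend removed it was 7, beside 13.9% of all genes. For dense members, of which SHMT2, SLC7A5, ASNS and SLC3A2 were called, the share to compare is 7.56% of genes with at least 0.5 reads per base. With that trend removed SLC1A5, PHGDH and PSAT1 changed sign, to 0.12, 0.042 and 0.12, and SLC3A2 to 0.13; it was 0.0010 with a filter of 5 CPM. Leaving out a library, log2 fold changes ran from -0.11 to 0.038 for SLC1A5, -0.076 to 0.067 for SLC3A2, -0.021 to 0.13 for SLC7A5, -0.046 to 0.082 for ASNS and -0.099 to 0.084 for PSAT1. Over the whole table DESeq2 called 1280 genes higher and 467 lower, against 2613 and 1422 in edgeR; 394 and 144 changed by at least 2-fold; 1682 were higher among genes under 0.25 reads per base; and without a library 1443 to 2760 were higher and 553 to 1527 lower, fewest without siLuc a. The cause of these differences was not tested, apart from the smaller number of genes or libraries where a setting leaves some out. No paired analysis was possible because both siLuc columns carry the same replicate number, so the replicate block was not run. Counting error is small for the members, each with at least 186 counts in every library.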

Other observations

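Genes of glutathione metabolism and of the antioxidant factor NRF2, which also acts on SLC7A11, were looked at beside it. Of 20 tested, 6 were higher in siUPF1, 0 lower and 14 did not pass (30.0% higher, beside 16.8% higher and 9.14% lower among all genes), with a median log2 fold change of 0.07 (edgeR quasi-likelihood test). The sulfiredoxin gene SRXN1 had 102 and 91.1 CPM in siUPF1, against 72.0 and 70.7 CPM in siLuc, a log2 fold change of 0.43 (SE 0.08). CHAC1, a glutathione-degrading enzyme that is also on the ATF4 axis list, rose by 0.40 (SE 0.08), ME1, the malic enzyme, by 0.36 (SE 0.09) and GCLM, the modifier subunit of glutamate-cysteine ligase, by 0.27 (SE 0.07). The count was 2 without siLuc a, 4 without siLuc b, 9 without siUPF1 replicate 2 and 3 in DESeq2. Without siUPF1 replicate 1, 5 were higher and 3 lower. GCLM lost its call in DESeq2, without siLuc a, without siUPF1 replicate 1, among genes under 0.25 reads per base and with the density trend removed, at adjusted p of 0.0508 to 0.135, and ME1 lost its call without siLuc a. The antioxidant response element core TGACNNNGC, on either strand, occurred in promoter windows of SLC1A5, SLC3A2 and SLC7A5, 3 of the 7 members with a window, against 13.3% of all windows and 19.1% of tested genes with a window, and overlapped no C/EBP-ATF match.

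The pseudogenes SLC7A5P1 and SLC7A5P2 share sequence with SLC7A5 and have rows of their own. SLC7A5P1 had 150 and 176 counts in siUPF1, against 113 and 106 in siLuc, and SLC7A5P2 252 and 284 in siUPF1, against 198 and 199 in siLuc, small beside the 3121 to 3747 counts of SLC7A5 itself. The sources used here do not say how reads shared by such copies were assigned.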
